A study of Mus musculus with 163 samples.

Results

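The cells described here are single cells labelled as neurons, sorted from the mediobasal hypothalamus by the GFP that reports *Pomc* expression, that held the most or the least mRNA of immediate early genes. For each cell a score was taken as the mean log2RPM (log2 of RPM, reads normalised to the depth of the cell) of *Fos*, *Jun*, *Junb*, *Egr1*, *Nr4a1* and *Arc*. The 54 cells with the highest score form the high side, the 54 with the lowest form the low side, and the remaining 55 cells of the table lie between them. The cells were thus selected on these 6 measured values, and the levels of the 6 genes are given below as a description only.

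All cells came from adult male mice of the strain C57/BL6 Tg(Pomc-EGFP)1Low, in which EGFP is driven by *Pomc* regulatory sequence, and no cell or mouse received a treatment. Tissue was dissociated with papain, single GFP-positive cells were sorted into plates, and each cell gave 1 SMART-Seq v4 library. The labels name no mouse, plate or day, so all cells count as 1 sample: the comparisons carry no p-values, and an SD below is the spread between cells. A gene was called higher or lower where the means of the high and low sides differed by at least 1 on the log2RPM scale, and was called expressed in a cell at 5 RPM or more.

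Immediate early genes are transcribed within minutes of a stimulus, without new protein synthesis, from transcription factors such as CREB and SRF that are already present in the cell. Their products include transcription factors of the FOS and JUN (AP-1), EGR and NR4A families, which switch on later genes, and proteins such as ARC that act at the synapse. In the hypothalamus *Fos* is widely used as a mark of recently active neurons, and the same genes are also induced by growth factors and by cell stress.

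Recovered read depth was similar on both sides, with a median of 7.62 M reads per cell (1.46 to 34.4 M) on the high side and 8.15 M (3.24 to 41.9 M) on the low side. Cells on the high side expressed 6935 ± 916 genes and cells on the low side 6695 ± 823 (SD over 54 cells each). The sides were unevenly spread over the deposited cell numbers: the high side took 10 of cells 1 to 66, 3 of cells 67 to 98 and 41 of the cells from 99 on, whereas the low side took 22, 24 and 8. What these ranges stand for is not given in the sources used here, so the score and any difference in handling between them cannot be told apart in the pooled comparison.

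The control genes *Gapdh* and *Ncam1*, a neural adhesion molecule, were expressed in every cell of both sides and differed by -0.02 and -0.22, and *Actb* was 1.04 higher on the high side. The share of cells with *Agrp* at or above 10 log2RPM was 25.9% (14 of 54; Clopper-Pearson 95% interval 14.96 to 39.7%) on the high side and 24.1% (13 of 54; 13.5 to 37.6%) on the low side. These intervals, like all those below, cover counting of cells only. Cells with high *Agrp* were therefore nearly as frequent on either side, and 21 of the 55 cells in between also had them.

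**Figure D1:**
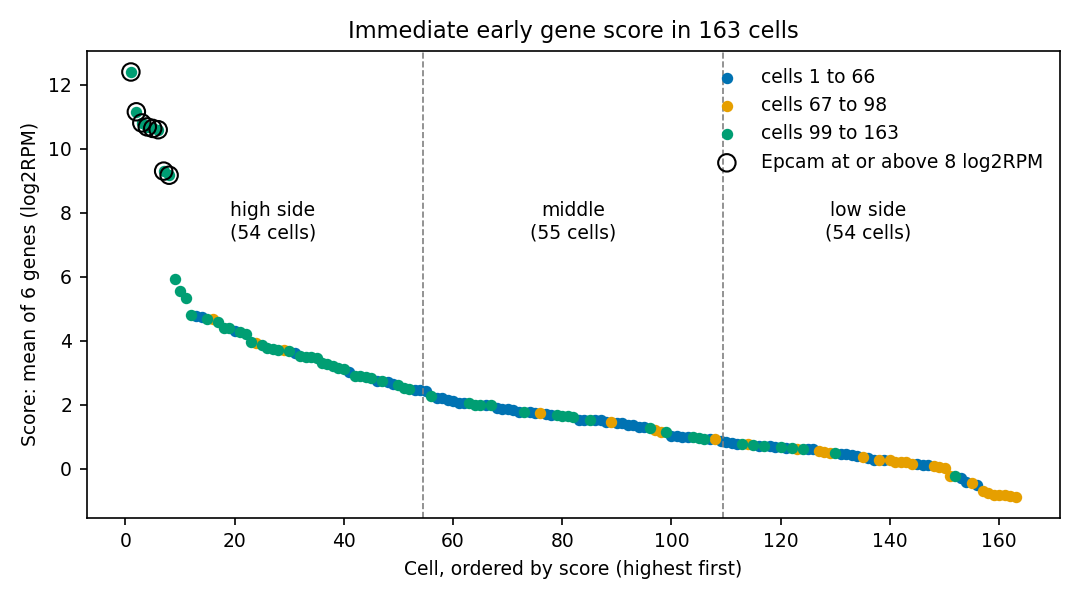
Each point is 1 cell, placed by its rank (x axis, highest score first) and its score in log2RPM (y axis), with colour for the range of cell numbers and a ring around cells with Epcam at or above 8 log2RPM. Dashed lines bound the high side, the middle and the low side. The 8 ringed cells score 9.17 or more, and the next cell scores 5.92.

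The score ran continuously across both cut points. The lowest cell of the high side scored 2.46 and the cell just outside it 2.43, while the highest cell of the low side scored 0.85 and the next cell 0.87. The single gap lay at the top, between 8 cells with scores of 9.17 to 12.40 and all others, which scored at most 5.92. As the plot of ranked scores shows, these 8 cells all fall among the cells from 99 on.

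These 8 cells went against the label of hypothalamic neurons. They were picked out, after the values were seen, by *Epcam*, an epithelial cell adhesion molecule, which had 8.28 to 10.65 log2RPM in them (median 10.38) and at most 3.66 in any other cell. *Stmn2*, a microtubule regulator of neurons, had a median of 2.94 log2RPM in the 8 cells (2.37 to 8.01). *Gap43*, a growth cone protein, had a median of 3.76 in them, against 10.46 on the low side. Of the 9 pituitary markers listed, 4 were measured, and their summed level was 345 to 17790 RPM in the 8 cells, 2.36 to 876 RPM in the other 46 cells of the high side, and 2.28 to 296 RPM on the low side. *Tbx19*, a pituitary transcription factor, had a median of 8.68 log2RPM in the 8 cells (1.20 to 10.80) and was expressed in 5 of them, and 3 of the 8 held at least 3 pituitary markers at 5 log2RPM. *Pomc* had a median of 13.97 log2RPM in them (8.43 to 16.06), and none of the 8 had *Agrp* at 10 log2RPM. The main results below are therefore given for all 54 cells of the high side and for the 46 cells left without these 8, and a value with no further mention is for all 54.

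**Figure D2:**
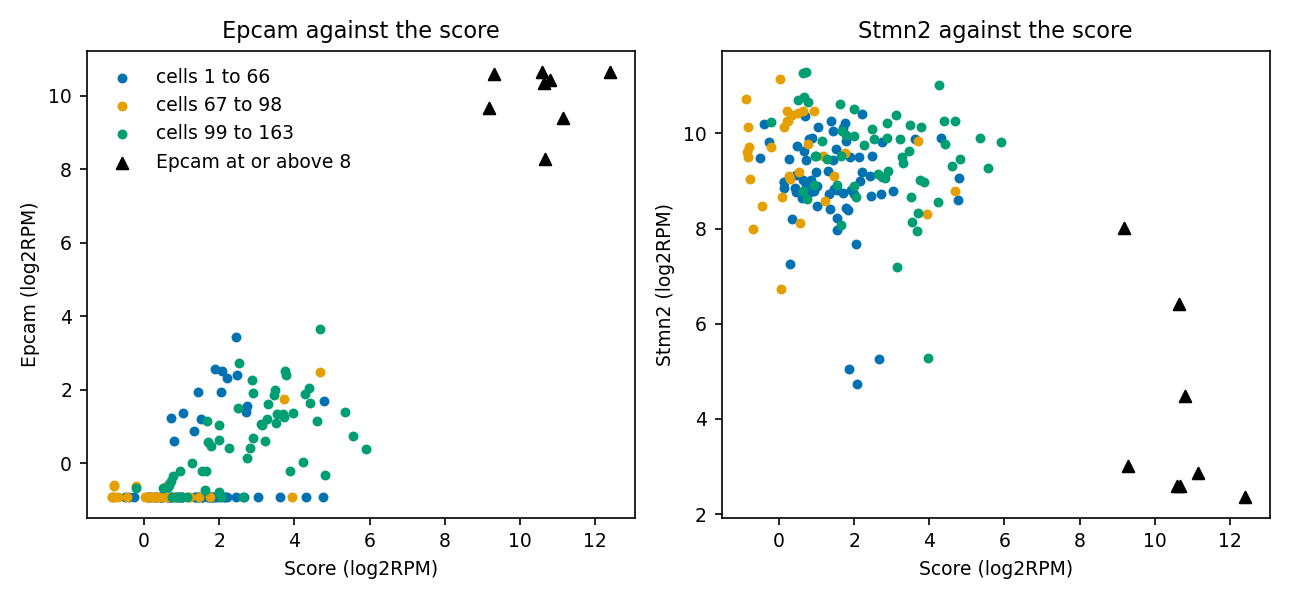
Level of Epcam (left) and Stmn2 (right) in log2RPM on the y axis against the score on the x axis, 1 point per cell, coloured by range of cell numbers, with triangles for the 8 cells with Epcam at or above 8 log2RPM. The triangles stand apart in score and in Epcam, and 6 of them hold less Stmn2 than any other cell.

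*Epcam* also followed the score at low levels outside these 8 cells in part of the table. It was at 1.29 log2RPM (median; highest 3.66) in the other 46 cells of the high side and at -0.91, the value for 0 reads, in the median cell of the low side (highest 1.24). Over the 57 other cells from 99 on its Spearman correlation with the score was 0.66, against 0.35 over cells 1 to 66 and 0.06 over cells 67 to 98, as a description over cells that share mice and plates in a way the labels do not give. *Tbx19* and *Prl*, the hormone of lactotrophs, were 1.47 and 2.10 higher in the 46 cells than on the low side. The part that such traces play in the differences below was not tested.

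The regulatory sequence of 5 genes that the results turn on is shown because promoters of immediate early genes are known to carry cyclic AMP response elements, to which CREB binds. Each is the 250 bases before the annotated transcription start, 5′ to 3′ on the gene's strand, from RefSeq on GRCm38.p6. The windows are chr12:85473640-85473889 (plus strand) for *Fos*, chr15:101266596-101266845 (plus) for *Nr4a1*, chr1:191183334-191183583 (minus) for *Atf3*, chr1:134079156-134079405 (minus) for *Btg2* and chr17:26508473-26508722 (minus) for *Dusp1*. Capitals mark the core element TGACG on either strand (CGTCA where it lies on the other), including where 2 cores overlap in the full element TGACGTCA.
Fos: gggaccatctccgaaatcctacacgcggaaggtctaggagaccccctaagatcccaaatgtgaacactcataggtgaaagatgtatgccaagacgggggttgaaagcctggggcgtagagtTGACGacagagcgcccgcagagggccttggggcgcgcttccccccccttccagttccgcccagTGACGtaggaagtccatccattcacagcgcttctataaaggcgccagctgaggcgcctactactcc
Nr4a1: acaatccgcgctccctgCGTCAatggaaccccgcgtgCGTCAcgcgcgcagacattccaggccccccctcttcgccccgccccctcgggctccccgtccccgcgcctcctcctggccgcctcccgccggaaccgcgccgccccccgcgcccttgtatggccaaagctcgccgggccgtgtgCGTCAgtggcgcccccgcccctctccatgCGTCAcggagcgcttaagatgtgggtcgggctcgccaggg
Atf3: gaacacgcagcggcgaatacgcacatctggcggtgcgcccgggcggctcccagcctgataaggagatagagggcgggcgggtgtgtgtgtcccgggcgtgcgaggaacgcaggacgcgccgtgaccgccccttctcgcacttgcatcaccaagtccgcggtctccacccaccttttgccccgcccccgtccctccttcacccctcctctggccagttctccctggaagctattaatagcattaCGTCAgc
Btg2: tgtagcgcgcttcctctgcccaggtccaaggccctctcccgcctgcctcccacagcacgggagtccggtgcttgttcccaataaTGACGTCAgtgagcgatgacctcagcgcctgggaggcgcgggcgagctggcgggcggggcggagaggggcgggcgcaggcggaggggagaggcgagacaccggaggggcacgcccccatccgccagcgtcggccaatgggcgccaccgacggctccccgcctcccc
Dusp1: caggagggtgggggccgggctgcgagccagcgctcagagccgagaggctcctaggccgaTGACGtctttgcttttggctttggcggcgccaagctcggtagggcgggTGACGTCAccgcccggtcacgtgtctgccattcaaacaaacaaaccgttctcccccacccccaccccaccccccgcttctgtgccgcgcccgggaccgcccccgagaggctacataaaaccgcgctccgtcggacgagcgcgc

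The full element stands 166 bases before the start of *Btg2* and also in the window of *Dusp1*, while *Fos* holds 2 core elements, *Nr4a1* 4 and *Atf3* 1. Of 27025 RefSeq promoters of this length, 1.62% hold the full element and 17.9% a core element on either strand. The full element was in 2.92% of promoters of the deposited table and in 4.43% of those of genes at least 1 higher. Among promoters matched by symbol, the full element was in 3 of 17 feedback inhibitors, 3 of 13 late effectors and 0 of 14 other immediate early transcription factors, and a core element was in 6, 6 and 8 of them. Of genes in the deposited table, 28.1% of 9351 matched promoters held a core element, as did 34.9% of the 699 matched among genes at least 1 higher. The AP-1 site TGANTCA was in 5.01% of these 699 and 3.66% of the 9351. These matches describe letters in a window and no binding.

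Among the 6 score genes the sides were far apart by construction. *Fos*, the partner of JUN in AP-1, had 1.19 to 12.47 log2RPM (median 4.66) on the high side and -0.91 to 2.45 (median -0.72) on the low side. *Egr1*, a zinc finger transcription factor, had medians of 4.07 and -0.91 log2RPM on the high and low sides. Both were expressed in 45 of 54 cells of the high side and 1 of 54 of the low side, and the 17 and 9 cells expressing them in the middle stand between. *Junb*, an AP-1 subunit, had 0.82 to 12.16 log2RPM (median 5.03) on the high side and -0.91 to 5.79 (median -0.39) on the low side.

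The remaining 3 score genes behaved less evenly. *Nr4a1*, an orphan nuclear receptor, was expressed in 31 of 54 cells of the high side and none of the low side. *Arc*, the synaptic cytoskeletal protein, was expressed in 12 cells of the high side, 8 of them cells with high *Epcam*, and in none of the middle or the low side, where a count of 0 allows a share of up to 6.60% (exact upper limit). At a cut-off of 1 RPM in place of 5 RPM, *Arc* was expressed in 36 cells of the high side, 9 of the middle and 1 of the low side. *Jun* was common on both sides, in 48 and 31 of 54 cells, with medians of 6.11 log2RPM on the high side and 3.49 on the low side.

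The differences between the means of the sides were 6.02 for *Fos*, 5.45 for *Egr1*, 5.13 for *Junb*, 4.36 for *Nr4a1*, 3.04 for *Jun* and 2.90 for *Arc* on the log2RPM scale. Without the 8 cells they were 5.18, 4.24, 4.23, 3.05, 2.42 and 1.62. *Arc* lost the largest share of its difference when these cells were left out.

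**Figure D3:**
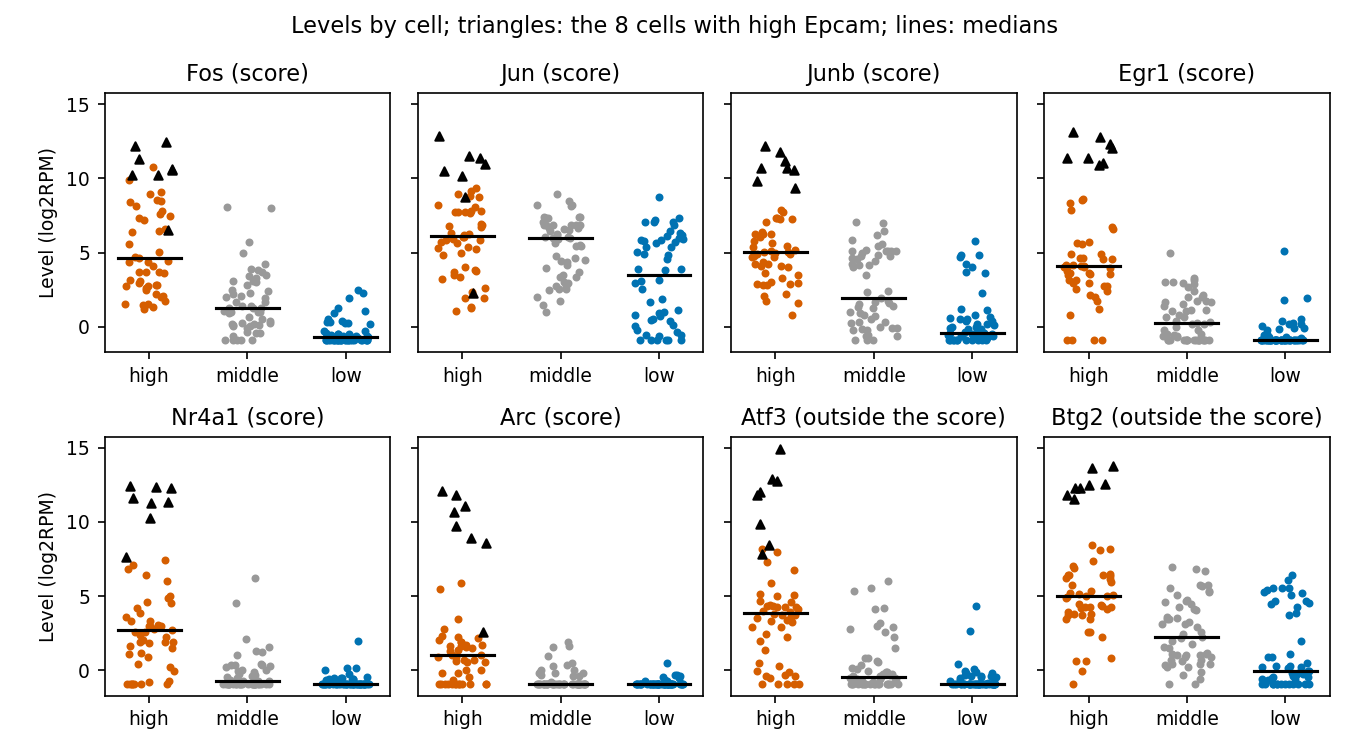
Levels in log2RPM (y axis) of the 6 score genes and of Atf3 and Btg2, which are outside the score, with 1 point per cell for the high side, the middle and the low side, triangles for the 8 cells with high Epcam and lines at the medians. Fos has medians of 4.66 on the high side and -0.72 on the low side, and Jun overlaps most between the sides.

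The score genes did not vary as 1 unit from cell to cell. Over all cells the Spearman correlation was 0.83 between *Fos* and *Egr1* and 0.67 both between *Egr1* and *Nr4a1* and between *Nr4a1* and *Arc*. *Jun* correlated at 0.08 to 0.23 with the others, and at -0.05 to 0.14 without the 8 cells. When each gene was left out of the score and the sides were cut from the remaining 5, the left-out gene differed by 5.64 (*Fos*), 5.14 (*Egr1*), 3.80 (*Nr4a1*), 3.52 (*Junb*), 2.77 (*Arc*) and 1.51 (*Jun*). With the 8 cells also left out, these differences were 4.74, 3.92, 2.45, 2.50, 1.47 and 0.81. For *Jun* the medians of the recut sides were 5.76 and 5.52, with 46 and 38 cells expressing it. The recut high sides shared 48 to 52 cells, and the recut low sides 45 to 52, with the sides used here. The values thus only describe how these 6 genes vary together.

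Outside the score, 930 of 12181 genes (7.63%) were at least 1 higher on the high side and 190 (1.56%) at least 1 lower, around a median difference of 0.13. Without the 8 cells the counts were 1057 (8.68%) higher and 70 (0.575%) lower, around a median of 0.21. Many of these genes were expressed in some cells and not in others, so that the SD between cells was often wider than the difference, as for *Dusp1* (2.88 on the high side and 3.16 on the low side). On the scale log2(RPM + 5), which gives less weight to levels near 0, 0.911% of genes were at least 1 higher and 0.263% at least 1 lower. With the upper and lower cells taken within ranges of cell numbers and then pooled, without the 8 cells, these shares were 4.10% and 0.755%.

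Other transcription factors of the immediate early response were higher together with the score. Of 26 listed, 18 were measured, and 13 of these were at least 1 higher and none lower, with a median difference of 1.63 beside 0.13 over all genes. Without the 8 cells 10 of 18 were at least 1 higher, with a median of 1.06 beside 0.21. With the upper and lower cells taken within ranges of cell numbers and pooled, also without the 8 cells, 4 of 18 were. In 12 of the 13 the mean of the middle cells lay between those of the sides.

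*Atf3*, a stress-inducible factor of the ATF family, showed the largest difference among the named genes outside the score. It had -0.91 to 14.92 log2RPM (median 3.86) on the high side and -0.91 to 4.30 (median -0.91) on the low side, and was expressed in 38 and 2 of 54 cells. The difference of means was 4.75 (4.18 ± 3.90 on the high side and -0.57 ± 0.88 on the low side, SD over cells), and 3.51 without the 8 cells. The sides overlapped, but 21 cells of the high side, 13 of them outside the 8, lay above every cell of the low side.

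*Egr2* and *Fosb*, paralogues of *Egr1* and *Fos*, were expressed in 15 and 12 of 54 cells of the high side and in none of the low side. At 1 RPM they were in 36 cells of the high side each, and in 1 and 3 of the low side. The 8 cells with high *Epcam* all expressed both, while of the other 46 cells 7 expressed *Egr2* and 4 *Fosb*, or 2 and 0 at 10 RPM. The differences of *Egr2* and *Fosb* were 2.85 and 2.65. Without the 8 cells they were 1.64 and 1.44, with most of the 46 cells under 5 RPM. *Ier2*, a nuclear protein of the early response, differed by 3.09 (22 and 5 cells expressing it), and 1.81 without the 8. *Nr4a2* and *Nr4a3*, the relatives of *Nr4a1*, differed by 1.65 and 1.61 (both 1.06 without the 8), and *Klf6*, a Krüppel-like factor expressed in 51 and 36 cells, by 1.84 (1.34 without the 8). *Npas4*, which responds to calcium influx in neurons, was expressed in 7 and 2 cells and differed by 1.23, and by 0.39 without the 8 cells. *Jund*, the AP-1 subunit that is made constitutively, differed by -0.02.

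Of the genes whose products end the response, more than the share over all genes were past 1. Of 23 listed feedback inhibitors 20 were measured, of which 13 were at least 1 higher and none lower (median difference 1.28), and 9 without the 8 cells (median 0.96). With cells taken within ranges of cell numbers and pooled, without the 8, 4 of 20 were, and 2 of 20 were at least 1 higher in each of the 3 ranges. *Btg2*, an antiproliferative protein that promotes mRNA decay, had -0.91 to 13.77 log2RPM (median 5.04) on the high side and -0.91 to 6.40 (median -0.02) on the low side. It was expressed in 48 and 16 of 54 cells, and its difference was 4.49, or 3.31 without the 8 cells.

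*Dusp1*, the phosphatase that inactivates MAP kinases, had -0.46 to 10.52 log2RPM (median 4.37) on the high side and -0.91 to 7.51 (median 0.11) on the low side. Its difference was 2.28 (1.77 without the 8 cells), with 35 and 22 cells expressing it. *Ppp1r15a*, which directs the phosphatase that restores translation after stress, differed by 2.47, *Zfp36*, which degrades AU-rich mRNAs, by 2.22, and *Sik1*, a kinase that restrains CREB coactivators, by 1.56. These were 1.54, 1.11 and 1.33 without the 8 cells. *Spred1*, an inhibitor of RAS signalling, differed by -0.69, and by -0.10 without the 8.

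Late effectors of neuronal activity, a list that includes genes acting at synapses and in secretion, showed smaller differences. Of 19 measured (21 listed), 7 were at least 1 higher and 1 lower, with a median difference of 0.51, and 6 were higher and none lower without the 8 cells (median 0.44). Over all genes 7.63% were higher and 1.56% lower, and 8.68% and 0.575% without the 8 cells. *Tiparp*, a mono-ADP-ribosyltransferase, differed by 2.37 and *Homer1*, a postsynaptic scaffold, by 1.98, with 33 and 15 cells of the high and low sides expressing the first and 28 and 14 the second. They differed by 1.83 and 1.43 without the 8 cells. *Pcsk1*, the convertase that cleaves POMC, differed by 1.49, and by 1.77 without the 8 cells. *Bdnf*, a neurotrophin, was expressed in 14 and 6 cells and differed by 1.00, and by 1.16 without the 8 cells. *Nrgn*, a postsynaptic calmodulin-binding protein, was the gene that was lower (-1.01).

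The upstream kinases and factors, which relay the stimulus, stayed closer to all genes. Of 31 measured, 4 were at least 1 higher and none lower (median 0.34), and 2 without the 8 cells (median 0.44). The share of all genes at least 1 higher was 7.63%, and 8.68% without the 8 cells. *Srf* differed by 1.54, and by 0.48 without the 8, and *Mef2a* by 1.18, and by 1.28 without the 8. *Creb1*, the factor that binds the cyclic AMP response element, differed by 0.55.

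**Figure D4:**
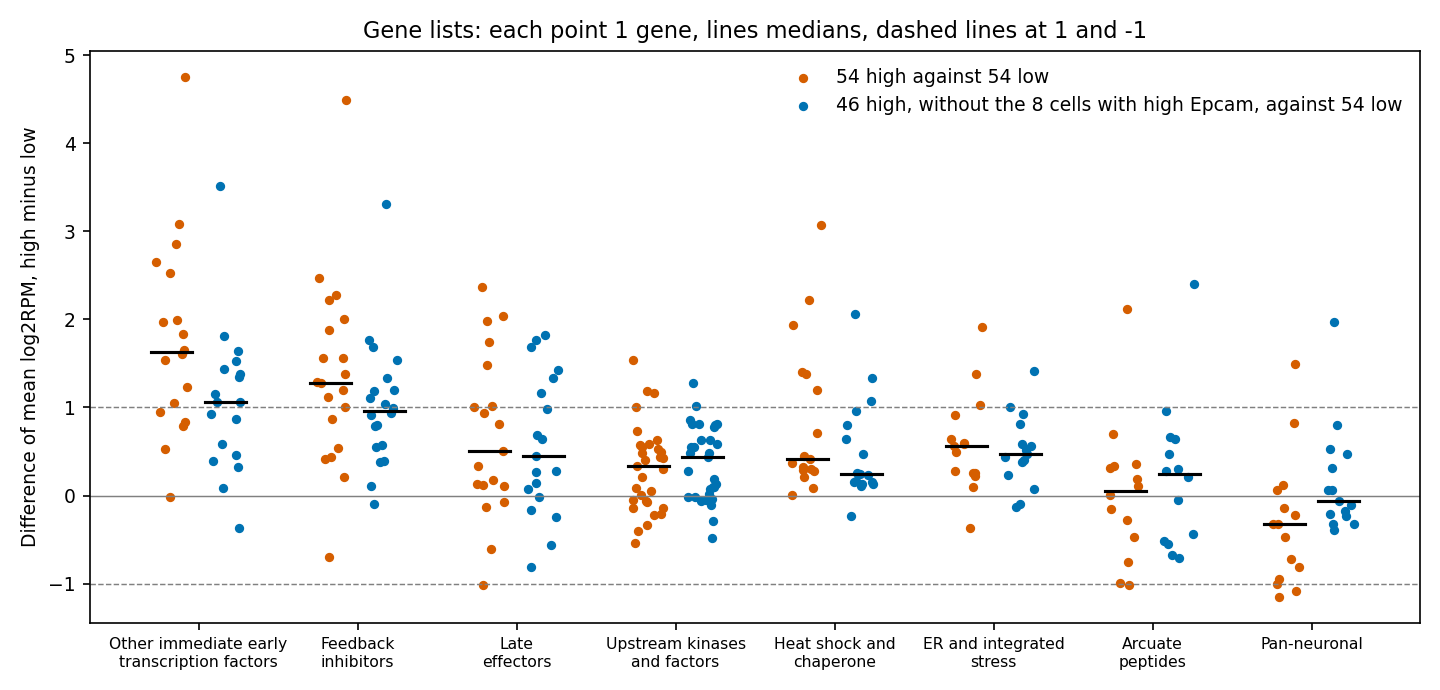
Difference of mean log2RPM, high side minus low side (y axis), for each measured gene of 8 lists, for all 54 cells of the high side (left points) and for the 46 left without the 8 cells with high Epcam (right points), each against the 54 cells of the low side. Short lines are list medians, such as 1.63 and 1.06 for the other immediate early transcription factors, and dashed lines mark 1 and -1.

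Stress genes were mixed. Of 17 heat shock and chaperone genes 6 were at least 1 higher and none lower (median 0.41), but only 3 without the 8 cells (median 0.25). Beside these stand 7.63% of all genes higher, and 8.68% without the 8 cells. *Hspb1*, a small heat shock protein, had medians of 3.41 log2RPM on the high side and -0.42 on the low side and differed by 3.07, or 2.06 without the 8. *Dnajb1*, a co-chaperone, differed by 2.22 and 1.33. *Hspa1a*, the inducible HSP70, differed by 1.40 with the 8 cells and by 0.26 without them. *Hspa8* and *Hsp90ab1*, the constitutive forms, differed by 0.41 and 0.28.

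Of 15 endoplasmic reticulum and integrated stress genes 3 were at least 1 higher, namely *Atf4* (1.91), *Ddit3* (1.38) and *Creld2* (1.02), and of 13 p53 and oxidative stress genes 3, namely *Hmox1* (1.80), *Trp53inp1* (1.496) and *Srxn1* (1.40). Without the 8 cells 1 of each list remained past 1, *Atf4* at 1.41 and *Hmox1* at 1.12, which is no larger a share than the 8.68% over all genes.

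The neuropeptides that define these cells showed small differences in the pooled comparison and mixed ones within ranges of cell numbers. *Pomc* had 3.90 to 16.06 log2RPM (median 8.23) on the high side and 2.89 to 15.42 (median 7.73) on the low side, a difference of 0.10, and -0.52 without the 8 cells. *Agrp*, *Npy* and *Cartpt* differed by 0.32, 0.36 and -0.15, and by 0.64, 0.66 and 0.21 without the 8 cells. Among 14 measured peptide genes *Tac2*, the neurokinin B precursor, was the 1 that was at least 1 higher (2.12, with 19 and 6 cells expressing it, and 2.41 without the 8 cells). *Sst*, somatostatin, was 1.02 lower on the high side, but differed by -0.67 without the 8 cells, when no peptide gene was at least 1 lower. Within ranges of cell numbers, without the 8 cells, 4 of the 14 were at least 1 higher and 4 lower in cells 1 to 66. These counts were 4 and 6 in cells 67 to 98, and 6 and 3 in the cells from 99 on. The shares of all genes higher and lower in these ranges were 7.69% and 5.61%, 26.8% and 7.83%, and 11.2% and 6.01%. *Lepr*, the leptin receptor, was the 1 of 17 receptors of energy balance past 1, at 1.12 (21 and 14 cells), and 1.53 without the 8 cells. The 95% intervals of the shares of cells expressing *Lepr* on the high and low sides overlapped. For the peptide genes and for the receptors, 1 higher gene is no larger a share than the 7.63% over all genes. The same holds beside the 8.68% without the 8 cells, so in the pooled comparison neither *Tac2* nor *Lepr* sets its list apart from all genes. Of the 17 receptors, 1 was at least 1 higher and 4 lower within cells 1 to 66, 6 and 4 within cells 67 to 98, and 3 and 2 from 99 on. Whether either list stands apart within these ranges was not tested.

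Of 15 pan-neuronal genes *Gap43* and *Stmn2* were at least 1 lower (-1.15 and -1.08), and *Nefm*, a neurofilament, was 1.496 higher. Over all genes 1.56% were at least 1 lower and 7.63% higher. Without the 8 cells *Gap43* and *Stmn2* differed by -0.23 and -0.32, and no gene of the list was at least 1 lower. The difference in these neuronal genes was thus larger with the 8 cells than without them.

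Among genes chosen by size alone, the 15 with the largest positive difference included, beside those above, *Mt1*, a metallothionein (2.66), *Cyfip1*, a regulator of actin and translation (2.65), *Ifi27* (2.65), *Zscan21* (2.54), *Klhl28* (2.39), *Hist1h2bc*, a histone (2.27), *Sec63*, part of the translocon (2.26), and *Rab27a*, a GTPase of granule release (2.24). All 15 remained at least 1 higher without the 8 cells, and in all 15 the middle cells lay between the sides. Within ranges of cell numbers 13 of the 15 were higher in all 3 ranges, 6 of them by at least 1, beside 0.435% of all genes. The 15 were chosen for their pooled difference, and these comparisons reuse many of the same cells, so such agreement is partly built in. The ordering changed, since only 6 of these 15 were among the 15 largest without the 8 cells. Genes that entered included *Enpp2*, which makes lysophosphatidic acid (2.67), *Gria3*, an AMPA receptor subunit (2.58), and *Rrad*, a small GTPase that inhibits calcium channels (2.43).

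The largest negative differences were smaller. *Gatsl2* differed by -1.74, *Smim18* by -1.72, *Itm2a* by -1.71, *Brca2* by -1.68 and *BC023829* by -1.68, and the other 10 by -1.61 to -1.48. *Lrrc17*, a leucine-rich repeat protein, had the smallest SDs of these 15 (1.42 on the high side and 1.29 on the low side), with 2.04 to 8.79 log2RPM (median 5.41) on the high side and 3.09 to 9.89 (median 6.87) on the low side, a difference of -1.56. Of the 15, 14 were still at least 1 lower without the 8 cells, the exception being *Vegfb* at -0.91. Within ranges of cell numbers fewer held: 7 of the 15 were lower in all 3 ranges and 1 was at least 1 lower in all 3, and *Lrrc17* differed by -0.64, -0.57 and -0.08 in cells 1 to 66, 67 to 98 and from 99 on.

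The 10 genes outside the score whose levels ranked most like it over all cells included *Atf3* (Spearman 0.67), *Egr2* (0.66), *Copz2* (0.65), *Epcam* (0.65), *Btg2* (0.60), *Cldn3*, a tight junction protein (0.60), *Ier2* (0.59), *Fosl2* (0.58) and *Tbx19* (0.56). Immediate early genes thus shared this list with *Epcam*, *Cldn3* and *Tbx19*, and 9 of the 10 were also among the 10 highest without the 8 cells. The score itself correlated at -0.07 with read depth and at 0.15 with the number of genes expressed. The correlation with genes expressed was 0.32 without the 8 cells, and the 46 cells of the high side expressed 7204 genes on average, against 6695 on the low side. The part of this in the differences was not tested.

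Because the sides were unevenly spread over the cell numbers, cells with the highest and lowest scores were also compared within each range, without the 8 cells. In cells 1 to 66 (22 against 22) 7.69% of genes were at least 1 higher and 5.61% at least 1 lower. In the cells from 99 on (19 against 19) 11.2% were higher and 6.01% lower. In cells 67 to 98 (11 against 11) 26.8% were higher and 7.83% lower, but the upper 11 cells began at a score of 0.57, below the top of the pooled low side. The upper cells began at 1.83 in cells 1 to 66 and at 3.50 from 99 on, and the lower cells reached 0.85 and 1.78. The score genes differed by medians of 2.23, 2.13 and 3.25 in cells 1 to 66, 67 to 98 and from 99 on. The 3 comparisons thus span unlike scores, and counts from different ranges are not like for like.

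Within the cells from 99 on, 13 of 18 other immediate early transcription factors were at least 1 higher (median 1.40) and 8 of 20 feedback inhibitors (median 0.81). Within cells 1 to 66 these were 4 of 18 (median 0.34) and 3 of 20 (median 0.50), whereas 8 of 19 late effectors were at least 1 higher (median 0.67). There *Plk2*, a polo-like kinase, differed by 2.56, *Bdnf* by 2.46 and *Nrn1*, neuritin, by 1.83. Within cells 67 to 98, 9 of 18 other immediate early transcription factors were at least 1 higher and 1 lower (median 0.85). There 6 of 20 feedback inhibitors were higher and 1 lower (median 0.34), and 4 of 19 late effectors higher and 3 lower (median 0.19). Over all genes in that range 26.8% were higher, around a median of 0.32. Whether the ranges differ in these responses was not tested.

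**Figure D5:**
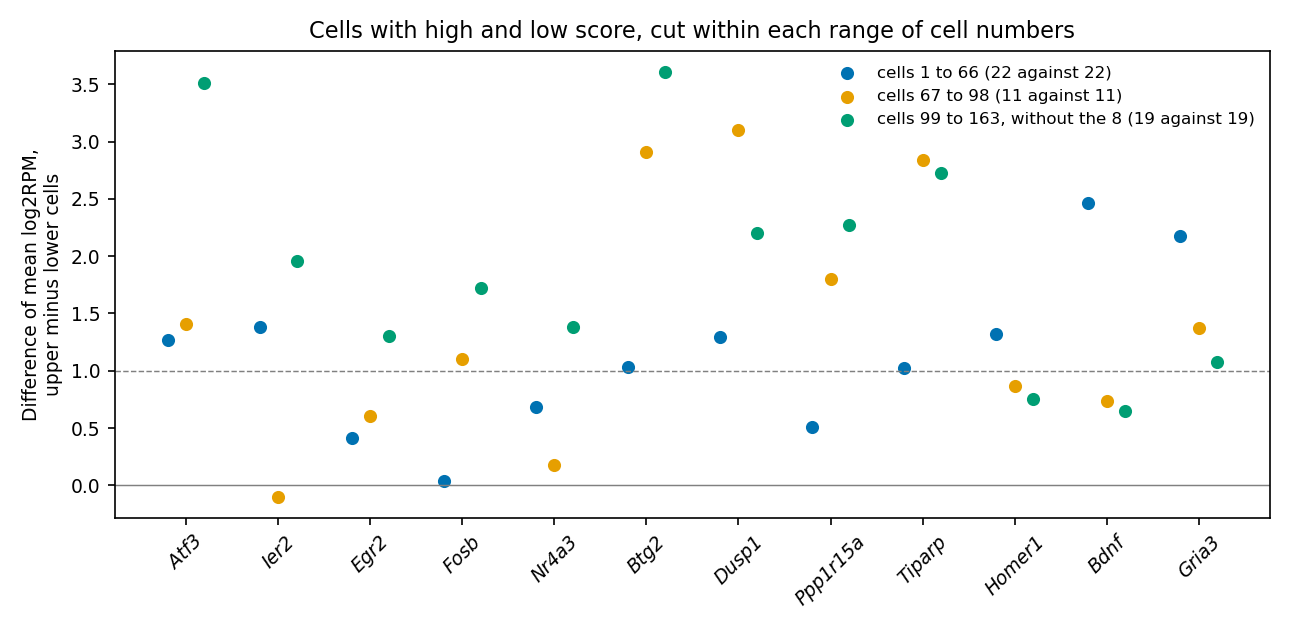
Difference of mean log2RPM, upper minus lower cells by score (y axis), for 12 genes named in the text (x axis), taken separately within cells 1 to 66, 67 to 98 and from 99 on, with the 8 cells with high Epcam left out. Atf3, Btg2, Dusp1, Tiparp and Gria3 are at least 1 higher in every range, and Bdnf is past 1 in cells 1 to 66.

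In all 3 ranges, 53 genes (0.435%) were at least 1 higher and 7 (0.0575%) at least 1 lower. *Atf3* differed by 1.27, 1.40 and 3.51 in cells 1 to 66, 67 to 98 and from 99 on, *Btg2* by 1.04, 2.91 and 3.61, *Dusp1* by 1.29, 3.10 and 2.199, and *Tiparp* by 1.02, 2.84 and 2.72. *Mt1*, *Sec63*, *Enpp2*, *Gria3* and *Anxa2*, an annexin, were also among the 53. The 7 that were lower included *Cygb*, cytoglobin, *Nrxn3*, a presynaptic adhesion molecule, *Pdyn*, the dynorphin precursor, and *Prlr*, the prolactin receptor.

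Neurons with high and low *Agrp* were compared apart as well. Among cells with *Agrp* at or above 10 log2RPM (14 on the high side and 13 on the low side), 14.6% of genes were at least 1 higher and 5.69% at least 1 lower, and 7 of 18 other immediate early transcription factors, 7 of 20 feedback inhibitors and 3 of 19 late effectors were higher. *Atf3* and *Btg2* differed by 4.22 and 3.31 there, but *Ppp1r15a* by -0.0039. Among cells under 10 log2RPM without the 8 (32 against 41), 11.9% were higher and 1.17% lower, and 12, 10 and 8 genes of these lists were higher, with 3.23 for *Atf3* and 3.24 for *Btg2*.

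Neurons with the most *Fos* carried only some of the other early genes. Outside the 8 cells, 9 cells had *Fos* at or above 8 log2RPM (a group chosen after the values were seen), 4 of cells 1 to 66, 1 of cells 67 to 98 and 4 of the cells from 99 on, and 1 of them had *Agrp* at 10 log2RPM. *Egr1* was expressed in all 9 (3.18 to 8.64 log2RPM), *Junb* in 8, *Dusp1* in 8 and *Btg2* in 7. *Nr4a1* was expressed in 4, *Atf3* in 3, *Bdnf* in 3, *Egr2* and *Npas4* in 2, *Arc* and *Ier2* in 1 and *Fosb* in none. The 8 cells with high *Epcam* expressed *Egr1*, *Junb*, *Nr4a1*, *Arc*, *Fosb*, *Egr2*, *Ier2*, *Atf3* and *Btg2* in 8 of 8, *Jun* in 7, *Dusp1* and *Npas4* in 6, *Nr4a3* in 5 and *Bdnf* in 1. Among all remaining cells *Atf3* was expressed in 26.7% and *Ier2* in 18.5%, beside 33.3% and 11.1% of the 9 cells. *Jun* was in 80.1% of the remaining cells and 66.7% of the 9, and *Fosb* in 4.79% and 0%. *Nr4a1*, *Nr4a3*, *Egr2* and *Npas4* were in 14.4%, 5.48%, 5.48% and 1.37% of the remaining cells. In the 9 cells these genes stood at 44.4%, 33.3%, 22.2% and 22.2%. *Homer1*, *Bdnf* and *Arc* were in 30.1%, 21.2% and 2.05% of the remaining cells, beside 55.6%, 33.3% and 11.1%. *Stmn2* was at 8.56 to 11.03 log2RPM in the 9 cells and *Epcam* at -0.91 to 2.48.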

How the data were processed

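Single-cell RNA-seq values of the MBH Pos neurons were analysed as 1 sample. Per the labels and the methods, CASAVA 1.7 was used for demultiplexing, TopHat2 2.0.11 for alignment (GRCm38), Cufflinks 2.2.1 for counting, and edgeR with limma for normalization (their versions are not given in the sources used here). The log2 values deposited by the authors are log2RPM with a prior. All 12187 genes hold 5 RPM or more in 7 or more cells, and -0.91 stands for 0 reads. No per-sample column was left unused.

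Differences are high side minus low side in mean log2RPM. With 1 sample no test was run, and "higher" and "lower" describe means 1 or more apart. The members and gene lists were chosen with earlier results of these data known. Named were the 6 score genes, the 15 largest positive and the 15 largest negative differences (genes expressed in 50% or more of the cells on the side where they are higher), the 10 genes most correlated with the score, examples from lists, and *Actb*, *Gapdh* and *Ncam1*. The 8 cells (*Epcam* at or above 8 log2RPM), the comparisons without them, those within ranges of cell numbers and any other named gene were chosen after values were seen. Microglial, endothelial and mural markers were not analysed here, and some genes that the rule names are not reported here.

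Depths (1.46 to 41.9 M reads per cell) come from the spacing of low values, 99.3% of which were within 0.1 of whole reads. Shares carry Clopper-Pearson 95% intervals. Scripts were tested on simulated data. Alternatives were other scores, sides of 40 and 81 cells, subsets by *Agrp*, by markers of other cell types and by cell number, log2(RPM + 5), a shift by the cell median, a filter at 10% of cells and thinning to 4 M reads. Software was Python 3.11.15 (numpy 2.4.6, pandas 2.3.3, scipy 1.17.1; plots by matplotlib 3.10.9).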

Additional observations from a re-analysis of the deposited data

How the results depend on the processing

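No paired analysis was possible because the cells count as 1 sample and no test was run. Under 20 alternatives, 1 called difference among the 47 named genes changed sign, that of *Ppp1r15a*, at -0.0039 among cells with *Agrp* at or above 10 log2RPM. The 6 score genes are among the 47, and their sign is set by the selection. Most of the others were chosen from these same cells for the size of their difference or their correlation with the score. A kept sign therefore follows in large part from that choice and is no separate support. With each cell shifted by its median, the median difference of all genes was 0.25 in place of 0.13.

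These shares and counts moved by more than 1.5 times, and the cause was not tested. Genes at least 1 higher made up 13.2% with 40 cells a side, 3.02% with 81, 14.6% with *Agrp* at or above 10 only, 3.96% with cells taken within ranges of cell numbers and 0.911% on log2(RPM + 5). Genes at least 1 lower made up 2.71%, 0.476%, 5.69%, 2.63% and 0.263% under these settings, 3.53% with *Agrp* below 10 only and 0.911% after the shift by the cell median.

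Among lists, the other immediate early transcription factors numbered 7 with *Agrp* at or above 10 only and 6 on log2(RPM + 5). Feedback inhibitors numbered 7 with 81 cells a side, 7 with *Agrp* at or above 10 only, 6 within ranges and 8 on log2(RPM + 5). Late effectors numbered 3 with *Agrp* at or above 10 only and 4 on log2(RPM + 5), and heat shock genes 2 on log2(RPM + 5). Pan-neuronal genes at least 1 lower numbered 4 with 40 cells a side, 5 with *Agrp* below 10 only, 1 without cells with 3 markers of another type and 1 after the shift. They numbered 0 with 81 cells a side, with *Agrp* at or above 10 only, without *Jun* in the score and thinned to 4 M reads.

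Alternatives chosen after seeing the data left out the 8 cells with high *Epcam*. Genes at least 1 lower then made up 0.575%, or 0.525% with 52 cells a side, and in both cases heat shock genes numbered 3 and pan-neuronal genes lower 0. With cells taken within ranges and without these 8, 4.10% of genes were higher and 0.755% lower. The lists then held 4 other immediate early transcription factors, 4 feedback inhibitors, 3 heat shock genes and 0 pan-neuronal genes lower, and *Agrp* reached 10 log2RPM in 40.4% of the upper and 23.1% of the lower cells.

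A cut-off of 1 RPM moved 7 of 8 shares of the high side out of their interval, such as *Fos* to 100% and *Arc* to 66.7%, and 1 of 10 RPM moved 4, such as *Fos* to 66.7%. Thinning left out the 20 cells under 4 M reads. Shares of rarely expressed genes are limited by detection in shallow cells.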

Other observations

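Genes of protein synthesis and respiration, a grouping made after the values were seen, had list medians below that of all genes. The 88 ribosomal protein genes had a median difference of -0.35 (high side minus low side, log2RPM) and the 92 respiratory chain genes -0.28, beside 0.13 over all genes. Without the 8 cells with high *Epcam* the medians were -0.34 and -0.21, beside 0.21. Within ranges of cell numbers the medians were -0.26, -0.07 and -0.21 for ribosomal and -0.07, -0.06 and -0.17 for respiratory genes in cells 1 to 66, 67 to 98 and from 99 on. The medians over all genes in these ranges were -0.02, 0.32 and 0.04, so both lists stayed below them. Single members seldom passed 1: 1 ribosomal gene was at least 1 higher and 1 lower, and 0 respiratory genes were higher and 1 lower.

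Glutamate and GABA receptor genes differed with the cells included. Of 25, 1 was at least 1 higher and 3 lower with all 54 cells of the high side (among them *Gabrb1* at -1.10 and *Grin2b* at -1.46), and 3 were higher and 0 lower without the 8 cells. Over all genes these shares were 7.63% and 1.56%, and 8.68% and 0.575% without the 8 cells. Within the cells from 99 on, without the 8, 3 were higher and 9 lower (median -0.50), beside 6.01% of all genes lower. In cells 67 to 98, 4 were higher and 4 lower (median -0.22), beside 26.8% and 7.83% of all genes. In cells 1 to 66, 4 were higher and 0 lower (median 0.08), beside 7.69% and 5.61% of all genes. Of 5 measured oligodendrocyte markers none passed 1 with all 54 cells and 1 was at least 1 higher without the 8 cells (median 0.63), and their summed level was 4.02 to 151851 RPM on the high side (median 101.3) and 2.66 to 368 RPM on the low side (median 104.8). Of 5 measured astrocyte and tanycyte markers and 2 of oligodendrocyte precursors none passed 1 in the pooled comparison. Both precursor markers were at least 1 higher within cells 1 to 66 (median 2.28). Of the 5 astrocyte and tanycyte markers, 3 were at least 1 higher and 0 lower from 99 on (median 1.08). In cells 1 to 66, 2 were higher and 1 lower, and in cells 67 to 98, 0 were higher and 1 lower. At 5 log2RPM, 7 of 54 cells of the high side held at least 2 of these 5 markers, and 0 cells of the middle or the low side did. The part of these markers in the differences was not tested. In all, 13 cells of both sides held 3 or more markers of another cell type at 5 log2RPM.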
